A study of Mus musculus with 6 samples.

Results

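The miRNAs described here come from imprinted genes and domains of the mouse genome: miR-675 from H19, miR-483 from its neighbour Igf2, miR-335 from Mest, and miR-296 and miR-298 from the Gnas domain. They were taken by name from a table of 1626 mature miRNAs, which held all 9 listed arms: miR-675-5p and -3p, miR-483-5p and -3p, miR-335-5p and -3p, miR-296-5p and -3p, and miR-298-5p. The libraries were small RNA libraries of fetal liver from C57BL/6J embryos, 3 wild-type (WT, libraries 1 to 3) and 3 homozygous for a deletion of the locus of miR-144 and miR-451a (KO, libraries 4 to 6), each from 5000000 cells. Neither the embryonic day nor whether the libraries of a genotype came from separate embryos is stated in the labels, so a p-value here reflects only how these libraries scatter, part of which may be technical. The design text of the series names HITS-CLIP, which sequences RNA bound to a protein, whereas each sample is labelled miRNA-Seq with total RNA as its molecule; the counts were read as total miRNA levels, following the sample labels. Fetal liver is a mixed tissue in which blood-forming cells and hepatoblasts lie side by side.

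An imprinted gene is expressed from only the maternal or only the paternal copy. H19 is a maternally expressed long non-coding RNA whose transcript is the precursor of miR-675, and its neighbour Igf2, a growth factor gene active in fetal liver, is paternally expressed and holds miR-483 in an intron. Mest, paternally expressed, holds miR-335, and miR-296 and miR-298 belong to the imprinted Gnas domain. A hairpin precursor is cut into a 5p and a 3p arm, and a mature miRNA finds its targets mainly through its seed, bases 2 to 8. Fetal growth and liver development are the settings in which H19 and Igf2 are best known, while miR-335 is best known as a restraint on cell migration.

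All 9 mature sequences were found in RefSeq's table for GRCm38.p6, and they are shown because the 9 arms do not share a seed. The bases of the seed are in capitals, the sequences run 5′ to 3′, and the lengths are 21 to 23 bases.
mmu-miR-675-5p: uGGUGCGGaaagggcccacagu
mmu-miR-675-3p: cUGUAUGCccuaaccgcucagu
mmu-miR-483-5p: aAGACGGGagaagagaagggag
mmu-miR-483-3p: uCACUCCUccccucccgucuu
mmu-miR-335-5p: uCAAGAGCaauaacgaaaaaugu
mmu-miR-335-3p: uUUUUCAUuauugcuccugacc
mmu-miR-296-5p: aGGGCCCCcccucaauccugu
mmu-miR-296-3p: gAGGGUUGgguggaggcucucc
mmu-miR-298-5p: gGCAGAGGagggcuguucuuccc

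The 9 arms had 9 different seeds, and no other miRNA of the table with a RefSeq sequence (1376 of 1626) had any of these 7 bases as its seed. Over bases 2 to 7 alone, miR-483-3p matched miR-3110-3p, miR-335-5p matched miR-7646-5p, miR-335-3p matched miR-6986-3p and miR-296-5p matched miR-5621-3p. These 4 partners were scarce, with at most 53 counts in any library for miR-7646-5p and at most 6 to 10 for the others. The longest run of bases that a listed arm had in common with another sequenced miRNA of the table was 11, between miR-298-5p and miR-7047-5p. Base composition separated the miR-335 arms from the rest: G and C made up 30.4% of miR-335-5p and 36.4% of miR-335-3p, but 54.5% to 68.2% of the other 7.

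The hairpins lie in 3 places in GRCm38.p6. Mir675 is at chr7:142577064-142577147 on the minus strand, inside an exon of H19 in GENCODE M21. Mir483 is at chr7:142654924-142654996 on the same strand, inside the Igf2 gene and in no Igf2 exon, with 77776 bases between the hairpins. Mir335 is at chr6:30741299-30741396 on the plus strand, inside Mest and in no Mest exon. Mir296 (chr2:174267047-174267125) and Mir298 (chr2:174267504-174267585) lie on the minus strand with 378 bases between them. GENCODE M21 places no other gene over them on that strand. The nearest edge of Nespas, the antisense transcript of the Gnas domain, lies 13651 bases from Mir298. Nespas is on the minus strand too, so this edge is its 3′ end. These 2 hairpins are shown because they are neighbours whose products differed in their pattern over the libraries. The mature arms are in capitals.
Mir296: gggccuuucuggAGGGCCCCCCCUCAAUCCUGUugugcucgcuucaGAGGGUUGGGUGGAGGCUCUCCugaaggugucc
Mir298: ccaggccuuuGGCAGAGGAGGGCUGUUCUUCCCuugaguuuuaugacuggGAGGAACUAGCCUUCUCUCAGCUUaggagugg

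The libraries held 16243894 to 27089133 miRNA counts each. The KO libraries held miR-451a at 158.7 to 178 counts per 1000000 (CPM, after TMM scaling, which sets libraries level on the typical miRNA), against 152900 to 232200 CPM in WT, so the genotype labels matched the deleted locus. Defining markers of hepatocytes, mesenchyme and endothelium were above 0 in every library. A pair of libraries stood apart in hepatocyte miRNAs: the 6 listed (miR-122-5p and -3p, miR-192-5p, miR-194-5p, miR-148a-3p and miR-802-5p) summed to 138200 CPM in WT library 3 and 107600 CPM in KO library 6, against 37950 to 60610 CPM in the other 4. WT library 1 stood apart in muscle miRNAs, with a sum of 400.3 CPM for miR-1a-3p, miR-133a-3p and miR-206-3p, against 13.3 to 83.45 CPM elsewhere. In bulk tissue, fewer cells of a type and less RNA per cell cannot be told apart.

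Together the 9 arms took 0.396%, 0.478% and 0.597% of all miRNA counts in the WT libraries and 0.742%, 0.647% and 0.851% in the KO libraries. These shares are of the whole library, from which the KO had lost miR-144 and miR-451a. On that scale the median log2 fold of all other tested miRNAs was 0.34, while after TMM scaling it was -0.01, so the folds below are relative to the typical miRNA. The smallest count behind any value of the 9 arms was 209, for miR-675-5p in WT library 1, a share of 0.00101% (Wilson 95% interval 0.00088 to 0.00115). The interval covers counting error alone, because PCR copies of a molecule could not be told from separate molecules.

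Their levels spanned about 2 orders of magnitude, in CPM per mature miRNA, where a read stands for a molecule of 21 to 23 bases. miR-298-5p, with a mean of 2268 CPM over the 6 libraries, and miR-335-5p, with 2030 CPM, came first, and their ranges overlapped. miR-335-3p followed at 791.4 CPM, below both in every library and above miR-296-3p (414.4 CPM) in every library. miR-296-3p and miR-296-5p (317.6 CPM) overlapped. miR-483-3p (133.4 CPM) overlapped with miR-296-5p and was above it in WT library 3 (255.8 against 229.6 CPM). It lay above miR-483-5p (60.47 CPM) within each library although their ranges overlapped. miR-483-5p in turn overlapped with miR-675-3p (47.0 CPM). The scarcest was miR-675-5p at 18.6 CPM, below miR-675-3p in every library.

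**Figure D1:**
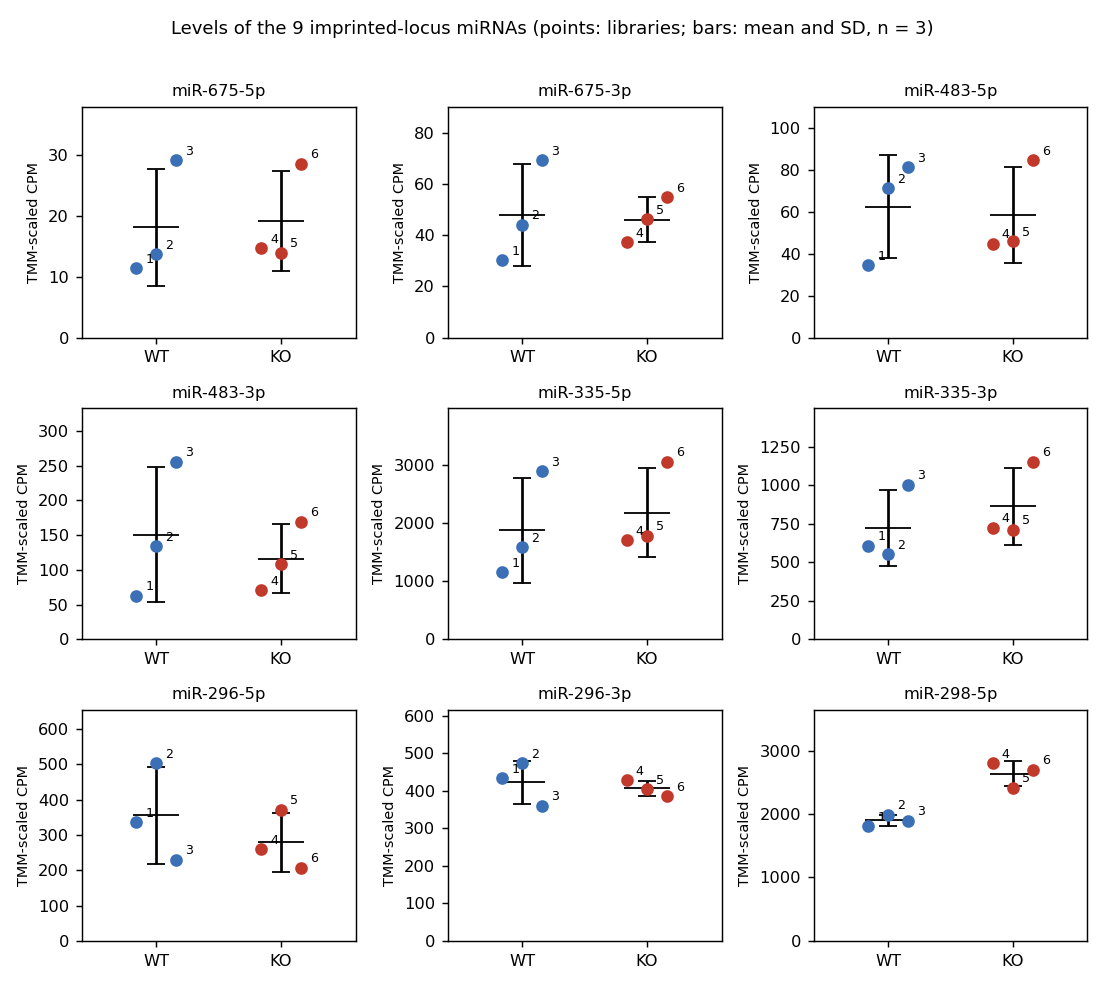
TMM-scaled CPM (linear axes from 0) of the 9 miRNAs in each library. Points are libraries, numbered 1 to 3 for WT and 4 to 6 for KO, and bars give mean and SD, n = 3 per genotype. Libraries 3 and 6 are the highest for all 6 arms of miR-675, miR-483 and miR-335, and the genotypes are apart only for miR-298-5p (1810 to 1991 CPM in WT and 2412 to 2798 CPM in KO).

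None of the 9 miRNAs passed the test between KO and WT, and 8 of them had overlapping genotypes. In edgeR's quasi-likelihood test, 0 of 9 had a Benjamini-Hochberg adjusted p under 0.05, where 0.799% of the 876 tested miRNAs did. At an unadjusted p under 0.05 the count was 1 of 9, against 11.3% of all tested, and DESeq2 and limma-voom called 0 of 9, where they called 1% and 0.913% of all miRNAs tested. All 9 passed the filter on low counts. Their median log2 fold was -0.05, with 4 above 0 and 5 below, beside a median of -0.01 over the tested miRNAs outside the locus. The lowest KO library was above the highest WT library for 1 of 9, miR-298-5p, against 15.9% of all tested miRNAs, a share near that background.

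miR-298-5p was the one of the 9 with separated genotypes. Its mean over the 6 libraries was the highest of the 9, but miR-335-5p was above it in WT library 3 and KO library 6. WT libraries 1 to 3 held 1810, 1991 and 1897 CPM of it and KO libraries 4 to 6 held 2798, 2412 and 2700 CPM. Each KO library was above each WT library, and the libraries of a genotype lay close together. WT averaged 1899 ± 90.1 CPM and KO 2637 ± 201 CPM (SD, n = 3 each), 1.39 times as much. The log2 fold was 0.47 (SE 0.13), with an edgeR p of 0.00745 before and 0.21 after Benjamini-Hochberg adjustment, the 31st smallest p of the table.

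The call of miR-298-5p depended on the scaling. With counts scaled to the whole library total its log2 fold was 0.84 and the adjusted p 0.0315, a setting where the typical miRNA stood at 0.34 and 6.96% of the tested miRNAs were called. Over the other alternatives the fold stayed between 0.35 and 0.59 and the edgeR, DESeq2 or limma-voom adjusted p between 0.0578 and 0.813.

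The opposite arm of the same hairpin, miR-298-3p, was looked at after its values were seen and is not among the 9. It was scarce, at 3.661, 4.06 and 4.055 CPM in WT and 4.79, 5.965 and 6.782 CPM in KO. Its KO values were above its WT values, as for 15.9% of all tested miRNAs. The fold was 0.57 on the log2 scale (SE 0.22), with an edgeR adjusted p of 0.371.

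The miR-296 arms, from the neighbouring hairpin, did not separate by genotype. miR-296-3p was at 433.2, 473.3 and 360.8 CPM in WT and 428.6, 404.3 and 386.3 CPM in KO. It was the steadiest of the 9, with a highest library 1.31 times the lowest, a smaller span than that of all but 10.9% of the 542 tested miRNAs with at least 50 counts in each library. KO over WT stood at a log2 fold of -0.06 (SE 0.17; edgeR adjusted p = 0.971). miR-296-5p, known as a regulator of growth factor receptor turnover in blood vessels, was at 335.9, 502.3 and 229.6 CPM in WT and 259, 370.9 and 207.6 CPM in KO. Libraries 3 and 6 were the lowest of their genotypes for both arms, and the genotypes overlapped. Its log2 fold was -0.35 (SE 0.34; edgeR adjusted p = 0.743), and it was -0.0867 without WT library 2, -0.19 without KO library 6, -0.62 without KO library 5 and -0.64 without WT library 3. For miR-296-3p the fold lay between -0.22 (without WT library 3) and -0.03 (without WT library 2) when a library was left out.

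Counts of miR-298-5p were also set against those of its neighbour. The ratios use the same miR-298-5p counts as the fold above, so they are not a separate result. How often the ratios of other pairs separate the genotypes was not computed. The ratio of miR-298-5p to miR-296-3p, which needs no scaling between libraries, was 4.18, 4.21 and 5.26 in WT and 6.53, 5.97 and 6.99 in KO. The 2 genotypes did not overlap, with means of 4.55 ± 0.615 and 6.5 ± 0.513 (SD, n = 3 each; exact two-sided permutation p = 0.1, the smallest that 3 against 3 libraries can give). Against miR-296-5p the ratio was 3.96 to 8.26 in WT and 6.5 to 13.0 in KO, which overlapped (exact two-sided permutation p = 0.2). These ratios belong to 4 that were chosen after the values were seen, and the adjusted p over the 4 was 0.267 for both.

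The miR-335 arms varied more within a genotype than between genotypes. miR-335-5p was at 1159, 1582 and 2897 CPM in WT and 1705, 1781 and 3058 CPM in KO. WT library 3 and KO library 6 were the highest, and the genotypes overlapped. Its means were 1879 ± 906 and 2181 ± 760 CPM (SD, n = 3 each), with a log2 fold of 0.21 (SE 0.39; edgeR adjusted p = 0.903). miR-335-3p was at 605.7, 552.6 and 1004 CPM in WT and 722.8, 711 and 1152 CPM in KO, with the same 2 libraries highest. For this arm the log2 fold was 0.26 (SE 0.30; edgeR adjusted p = 0.81). With the log2 level of miR-122-5p as a covariate the folds of the 2 arms were 0.32 and 0.30, with edgeR adjusted p of 0.0993 and 0.313. Without KO library 6 both folds were slightly below 0, at -0.11 and -0.01, while without WT library 3 they were 0.60 and 0.49. Without WT library 1 the fold of miR-335-5p was -0.04.

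The H19 product miR-675 had the lowest levels. miR-675-5p was at 11.42, 13.71 and 29.18 CPM in WT and 14.72, 13.97 and 28.59 CPM in KO. The values of libraries 3 and 6 were nearly equal to each other and 1.94 to 2.56 times as high as the other libraries of their genotype. Its log2 fold was 0.08 (SE 0.45; edgeR adjusted p = 0.999). miR-675-3p was at 30.22, 44.03 and 69.38 CPM in WT and 37.26, 46.23 and 54.87 CPM in KO. On the log2 scale KO over WT was -0.05 (SE 0.33; edgeR adjusted p = 0.999). Leaving out single libraries moved these folds to both sides of 0, between -0.33 (without KO library 6) and 0.53 (without WT library 3) for the 5p arm and between -0.30 (without WT library 1) and 0.25 (without WT library 3) for the 3p arm.

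Of the Igf2 products, miR-483-3p had the widest span of the 9 between libraries and miR-483-5p one like that of miR-675 and miR-335-5p. miR-483-3p, described in other tissues as a repressor of cell death genes, was at 62.62, 133.9 and 255.8 CPM in WT and 70.7, 107.9 and 169.4 CPM in KO. The highest library was 4.08 times the lowest, a wider span than that of 95.8% of the tested miRNAs with at least 50 counts in each library. Both the lowest and the highest value were WT libraries, and the log2 fold was -0.38 (SE 0.54; edgeR adjusted p = 0.842). miR-483-5p was at 34.59, 71.42 and 81.25 CPM in WT and 44.88, 45.95 and 84.76 CPM in KO. Its log2 fold was -0.09 (SE 0.40; edgeR adjusted p = 0.999). Without WT library 3 the fold of miR-483-3p was 0.17, and without WT library 1 or KO library 6 it was -0.75 and -0.76.

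**Figure D2:**
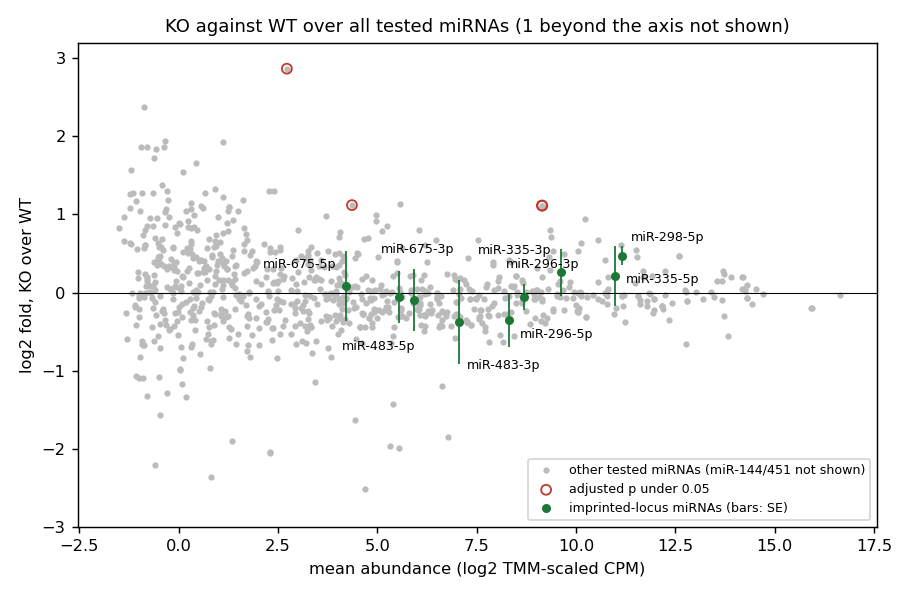
Fold between genotypes (log2, KO over WT; vertical axis) and mean level (log2 of TMM-scaled CPM; horizontal axis) of the tested miRNAs apart from miR-144 and miR-451a. Green points are the 9 imprinted-locus miRNAs with their SE, and red circles the miRNAs with an adjusted p under 0.05. The 9 lie between -0.38 (miR-483-3p) and 0.47 (miR-298-5p), and none is circled.

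Within each genotype, miR-675, miR-483 and miR-335 varied together and the Gnas-domain miRNAs did not vary with them. WT library 3 and KO library 6 were the 2 highest of the 6 libraries for 6 of the 9 arms, namely both arms of these 3 hairpins, as for 22.9% of all tested miRNAs. In the other 3 arms the pattern differed. For miR-296-5p and miR-296-3p, these were the lowest libraries of their genotypes, as for 21.1% of all tested miRNAs, and for miR-298-5p they were neither.

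The same 2 libraries had the highest hepatocyte miRNAs, with miR-122-5p at 117800 CPM in WT library 3 and 92260 CPM in KO library 6 against 29320 to 50130 CPM in the other 4. Of the 6 hepatocyte markers 5 had them as the 2 highest. Erythroid miR-486a-5p was lowest in the same 2 libraries, at 43830 and 49710 CPM against 56020 to 82220 CPM. Only this 1 of the 4 listed erythroid markers had both libraries lowest of their genotypes. The others are products of the deleted locus, so only their WT levels can be compared. There both miR-144 arms were lowest in library 3, but miR-451a was lower in library 2 (152900 CPM) than in library 3 (194500 CPM). In WT library 3 relative to WT library 1, miR-122-5p was 4.02 times as high, miR-483-3p 4.08 times and miR-675-5p, miR-675-3p, miR-483-5p and miR-335-5p 2.3 to 2.56 times, and miR-335-3p 1.66 times. Relative to WT library 2 the 6 arms were 1.14 (miR-483-5p) to 2.13 (miR-675-5p) times as high, and miR-122-5p 2.35 times. KO library 6 held 1.47 (miR-675-3p) to 2.4 (miR-483-3p) times the level of KO library 4 for the 6 arms, and 2.47 times for miR-122-5p. Relative to KO library 5 the arms were 1.19 (miR-675-3p) to 2.05 (miR-675-5p) times as high, and miR-122-5p 2.15 times. The part of hepatocyte content in these levels was not tested. Endothelial miR-126a-3p was also highest in these libraries, at 8382 and 8821 CPM against 5878 to 6220 CPM. The summed mesenchymal markers were at 3156 and 2979 CPM against 2052 to 2741 CPM. Among them, miR-143-3p, miR-199a-5p and miR-145a-5p were highest in WT library 3 and KO library 6. The others, miR-199a-3p (849.3 CPM) and miR-214-3p (37.87 CPM), were highest in WT library 1.

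**Figure D3:**
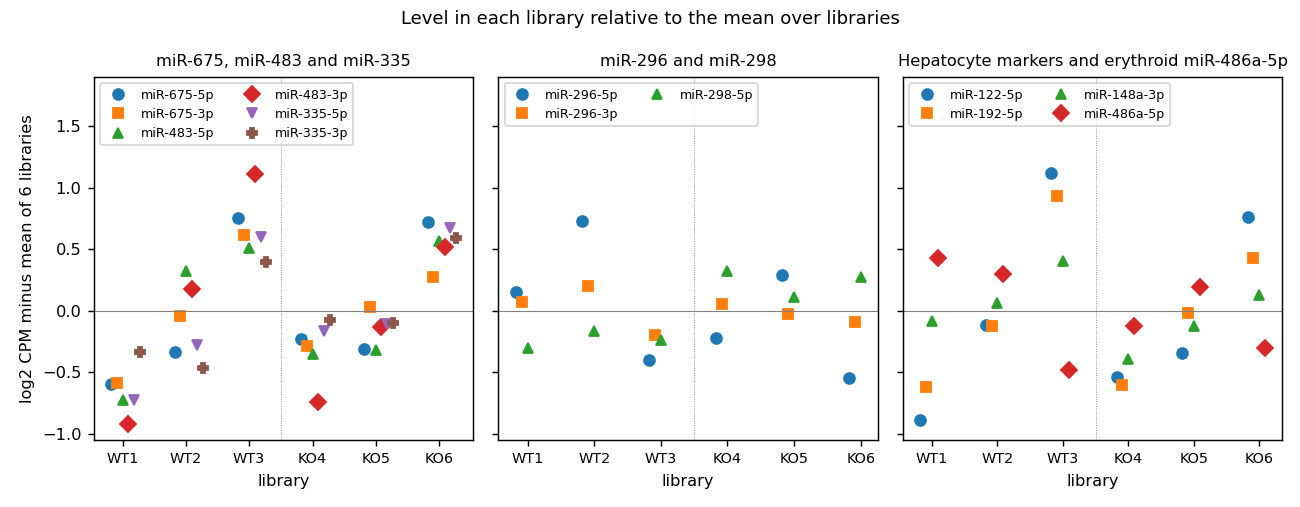
Log2 CPM of each miRNA in each library minus its mean over the 6 libraries. The first panel holds the arms of miR-675, miR-483 and miR-335, the second those of miR-296 and miR-298-5p, and the third 3 hepatocyte markers and erythroid miR-486a-5p; a dotted line divides WT from KO. In the first panel WT3 and KO6 are the 2 highest libraries for all 6 arms, as they are for miR-122-5p, miR-192-5p and miR-148a-3p.

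The miRNAs whose levels were most like those of the listed arms were taken by a rule, the 3 highest Pearson correlations of log2 CPM over the 6 libraries among 599 others whose mean count was 50 or more. The r values are descriptions over 6 libraries that share their genotype groups and their depth, and between 8 and 98 of the 599 had an r over 0.9 with a given arm. For miR-675, miR-483 and miR-335, 11 of the 18 miRNAs found belong to the imprinted Dlk1-Dio3 cluster, which holds 89 of the 599 candidates. miR-675-5p was most like miR-329-3p (r = 0.995, rho = 0.943), miR-675-3p most like miR-376a-5p (r = 0.996, rho = 1.0) and miR-335-5p most like miR-376c-3p (r = 0.987, rho = 0.886), all 3 of that cluster. miR-483-3p was most like miR-667-3p of the same cluster (r = 0.999, rho = 1.0), followed by miR-148a-5p, the opposite arm of the hepatocyte marker miR-148a-3p (r = 0.995, rho = 1.0). miR-483-5p was most like miR-5126 (r = 0.974, rho = 0.943), and miR-335-3p most like endothelial miR-126a-5p (r = 0.976, rho = 0.886). WT library 3 and KO library 6 were above the other 4 in each of these miRNAs except miR-5126, which was at 60.27 CPM in WT library 2 and 56.72 CPM in WT library 3. The r values were not computed without WT library 3 and KO library 6.

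The Gnas-domain arms had other companions, 0 of 9 from Dlk1-Dio3. miR-296-5p was most like miR-350-3p (r = 0.972, rho = 1.0) and miR-296-3p most like miR-3963 (r = 0.977, rho = 1.0). miR-298-5p was most like miR-328-3p (r = 0.989, rho = 0.886), which was at 335.7 to 393.4 CPM in WT and 661.7 to 848.5 CPM in KO and was itself called higher in KO (log2 fold 1.11, SE 0.17; edgeR adjusted p = 0.0447). That call ended with RLE scaling, upper-quartile scaling or the deleted locus removed before scaling (edgeR adjusted p 0.0716, 0.0505 and 0.144) and whenever any single library was left out (0.0779 to 0.367). The next by r, miR-6395, had counts within 0.954% of those of miR-328-3p in every library, so the pair is a single signal. The third was miR-103-3p (r = 0.95), at 4964 to 5371 CPM in WT and 7137 to 7228 CPM in KO.

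Between arms of 1 hairpin, r over the 6 libraries was 0.884 for miR-675, 0.917 for miR-483, 0.926 for miR-335 and 0.799 for miR-296. Across these hairpins without miR-296, the highest values were r = 0.974 for miR-675-5p and miR-335-5p and r = 0.97 for miR-675-3p and miR-483-3p. The lowest were with miR-335-3p, at 0.624 for miR-483-5p, 0.657 for miR-483-3p and 0.74 for miR-675-3p, below the values within a hairpin. miR-675 and miR-483 come from oppositely imprinted neighbours on chromosome 7, and miR-335 from chromosome 6. In contrast, miR-296-3p and miR-298-5p, the products of neighbouring hairpins, had r = -0.107. The lowest r of all pairs was -0.892, between miR-335-3p and miR-296-5p. The ratio of miR-483-3p to miR-675-3p was 2.07, 3.04 and 3.69 in WT and 1.9, 2.33 and 3.09 in KO. These ranges overlapped (exact two-sided permutation p = 0.5). The ratio of miR-335-5p to miR-675-3p was 35.9 to 41.8 in WT and 38.5 to 55.7 in KO (exact two-sided permutation p = 0.2), and it also overlapped.

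Arm use did not differ by genotype beyond the spread between libraries. The ratio of 5p to 3p counts (1 added to each) was 0.379, 0.312 and 0.421 for miR-675 in WT and 0.396, 0.303 and 0.521 in KO, so the 3p arm led in every library. For miR-483 it was 0.553, 0.534 and 0.318 in WT and 0.635, 0.426 and 0.5 in KO, again with the 3p arm ahead in every library. The 5p arm of miR-335 led throughout, at 1.91, 2.86 and 2.88 in WT and 2.36, 2.5 and 2.65 in KO. miR-296 was the hairpin whose leading arm changed between libraries: the ratio was 0.775, 1.06 and 0.637 in WT and 0.604, 0.917 and 0.537 in KO. For miR-298 the ratio was 396 to 578, with the 5p arm nearly alone.

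The log2 ratio in KO minus that in WT was 0.11 (95% interval -0.47 to 0.69) for miR-675 and 0.18 (-0.38 to 0.74) for miR-483. It was -0.00369 (-0.43 to 0.42) for miR-335, -0.27 (-0.81 to 0.26) for miR-296, where it moved from -0.0729 without WT library 2 to -0.5 without KO library 5, and -0.08 (-0.54 to 0.37) for miR-298. In limma's trend test over 263 hairpins the adjusted p lay between 0.932 and 0.993 for these 5. At an unadjusted p under 0.05 the test found 0 of these 5 and 5.7% of all hairpins, and at an adjusted p under 0.05 it found 0 of the 263 (0%). The genotypes overlapped for all 5, and did not overlap for 12.2% of all hairpins.

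**Figure D4:**
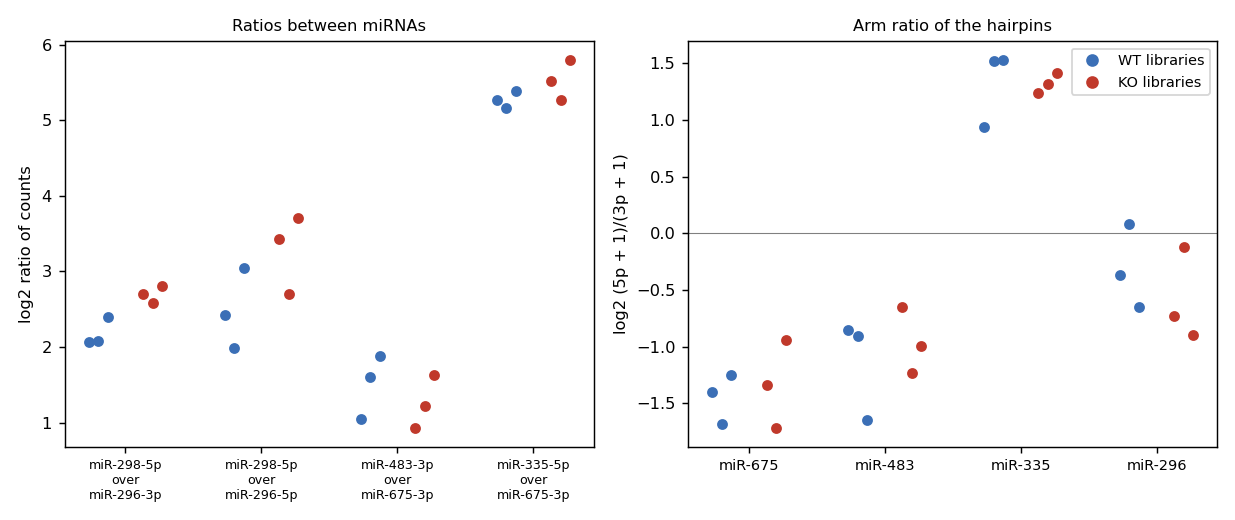
Left, log2 ratios of counts between miRNAs; right, log2 of (5p + 1)/(3p + 1) for 4 hairpins. Points are libraries, WT in blue and KO in red. The ratio of miR-298-5p to miR-296-3p separates the genotypes (at most 5.26 in WT and at least 5.97 in KO, before the log), while all arm ratios overlap.

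Other imprinted miRNAs of the table gave 0 calls as well. Of the 103 Dlk1-Dio3 miRNAs listed by name, 99 were tested, and 0 were called higher or lower by edgeR. Their median log2 fold was -0.04, and 0 had an unadjusted p under 0.05. Over all tested miRNAs edgeR called 0.799%, and 11.3% had an unadjusted p under 0.05. Nearly all of the 99 shared the library pattern of miR-675, miR-483 and miR-335. WT library 3 and KO library 6 were the 2 highest libraries for 96 of the 99, against 22.9% of all tested miRNAs. The most abundant of the 99, miR-379-5p, was at 3899, 5810 and 12260 CPM in WT and 4665, 5547 and 10220 CPM in KO. miR-127-3p, an antisense miRNA to Rtl1, stood at a log2 fold of -0.36 (SE 0.35) and miR-541-5p at -0.03 (SE 0.43), with edgeR adjusted p of 0.743 and 0.999.

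The Sfmbt2 intronic families (miR-297, miR-466, miR-467 and miR-669), which are also imprinted, had 64 tested members. Of these, 0 were called by edgeR, against 0.799% of all tested miRNAs, and 4 had an unadjusted p under 0.05, against 11.3%. The median log2 fold of the 64 was -0.30. Many members of these families are near-identical in sequence and cannot be read as separate signals. Of the 64, 0 had WT library 3 and KO library 6 as the 2 highest, against 22.9% of all tested miRNAs. For 29 of the 64, as for both miR-296 arms, these were the lowest libraries of each genotype, against 21.1% of all tested miRNAs.

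**Figure D5:**
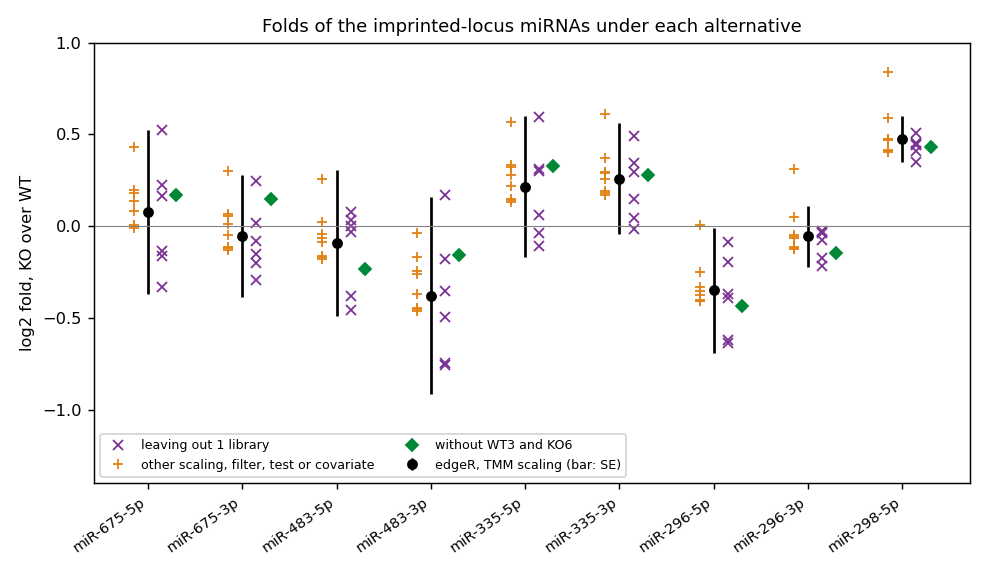
Log2 fold of KO over WT for each of the 9 miRNAs under the reported fit (black, bars are SE), other scalings, filters, tests or a covariate (orange), with 1 library left out (purple) and without WT3 and KO6 together (green). miR-298-5p stays above 0 throughout (0.35 to 0.84), while miR-675-5p spans -0.33 to 0.53.

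Leaving out WT library 3 and KO library 6 together was an alternative added after seeing the data. There edgeR called 0 of the 9 and 0.348% of all 863 miRNAs tested. The log2 folds were then 0.17 and 0.15 for miR-675-5p and -3p, -0.23 and -0.16 for miR-483-5p and -3p, and 0.33 and 0.28 for miR-335-5p and -3p. They were -0.44 and -0.15 for miR-296-5p and -3p and 0.43 for miR-298-5p.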

How the data were processed

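The authors deposited raw read counts per mature miRNA for 6 libraries and, beside them, a percent column, which equalled the count over the library's total times 100 to within 5e-09. The tool cutadapt, which trims adapters, is listed in the submitters' processing notes. For the aligner, the miRNA release and the genome, nothing is given in the sources used here. Groups came from the sample titles. Counts were fitted in R 4.3.3 with edgeR 4.0.16 (TMM scaling, filterByExpr, quasi-likelihood F-test of KO against WT over 876 miRNAs, Benjamini-Hochberg adjustment, threshold 0.05), and SE is the absolute log2 fold over the square root of F. limma 3.58.1 tested log2((5p + 1)/(3p + 1)) for hairpins with at least 10 counts on average per arm. DESeq2 1.42.0, limma-voom, other scalings and filters, miR-122-5p as a covariate and leaving out libraries were alternatives. The edgeR fit was tested first on simulated counts. It called 14 of 49 miRNAs given a log2 fold of 1 and 14 of 46 given -1, so most changes of that size were missed. At log2 folds of 2 and -2 it called 46 of 50 and 37 of 44. The arm-ratio fit was tested on the real counts, with a log2 shift of 3 put into 20 of 263 hairpins, of which 19 were called. Smaller arm shifts were not tried. Depth was 16243894 to 27089133 counts per library. The members and lists were chosen with earlier results of these data known. Named miRNAs are the 9 members, seed partners, cell type markers, the 3 most correlated miRNAs of each member and the 3 most abundant of Dlk1-Dio3; miR-298-3p and miR-7047-5p were named after their values were seen. Sequences and positions are RefSeq's (GRCm38.p6), gene models GENCODE M21.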

Additional observations from a re-analysis of the deposited data

How the results depend on the processing

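No paired analysis was made. The WT libraries are numbered 1 to 3 and the KO libraries 4 to 6, and the labels do not say whether any WT and KO libraries belong together. The count of 0 of 9 called miRNAs moved under 1 alternative, the whole library total, with 1 called higher. Over all miRNAs outside the locus, 4 were higher and 0 lower; the number higher was 1 with RLE scaling, upper-quartile scaling or the locus removed before scaling, 58 with the whole library total, 10 (and 2 lower) with DESeq2, 15 (and 1 lower) with miR-122-5p as covariate, 0 to 1 with a library left out and 0 without WT3 and KO6. Small folds changed sign. With the locus removed before scaling miR-675-5p was at -0.0124. With upper-quartile scaling miR-675-3p was at 0.0666, miR-483-5p at 0.02 and miR-296-3p at 0.0522. With the whole library total these 3 were at 0.30, 0.26 and 0.31, and miR-296-5p at 0.00612. miR-675-3p was at 0.0116 with limma-voom, 0.0544 with the covariate and 0.15 without WT3 and KO6. With single libraries left out, the folds ranged from -0.33 to 0.53 for miR-675-5p, -0.30 to 0.25 for miR-675-3p, -0.46 to 0.0794 for miR-483-5p, -0.76 to 0.17 for miR-483-3p, -0.11 to 0.60 for miR-335-5p, -0.0139 to 0.49 for miR-335-3p, -0.64 to -0.0867 for miR-296-5p and -0.22 to -0.0284 for miR-296-3p. The log2 arm ratio differences then ranged from -0.26 to 0.00953 for miR-298, -0.20 to 0.0969 for miR-335, -0.50 to -0.0729 for miR-296, -0.0805 to 0.32 for miR-483 and -0.0868 to 0.30 for miR-675. The cause of these sign changes was not tested. The fold of miR-298-5p kept its direction in all 15 alternatives.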
